A study of Mus musculus with 32 samples.

Results

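The PI3K, AKT and mTOR pathway genes described here are 34 genes chosen by name, with earlier results of these data known, and their counts were read from a table of 23337 mouse genes. They comprise the class I phosphoinositide 3-kinase subunits and adaptor, the lipid phosphatases that oppose them, the kinases PDK1, AKT and GSK3, the subunits and regulators of the mTOR complexes, and the translation factors downstream. All 34 had counts and passed the filter on low counts in every fit; Pik3ap1 was at 0 in 1 library and had counts in 31 of 32, and the others had counts in all. RNA-seq was done on cells sorted from gliomas of mice that the labels call XFM, injected in the brain at 5 to 6 weeks of age with DF-1:PDGFB cells, chicken fibroblasts that carry the growth factor PDGFB. Dosing began when a tumour measured 20 to 40 mm3 was daily with either Vehicle or BLZ945, which blocks CSF-1R, the growth factor receptor that macrophages depend on, and ended with symptoms or at 26 weeks of age. Tumour-associated macrophages (TAM, CD11b+ Gr1-) came from 6 BLZ945 mice at Endpoint, which the labels also call dormant, from 5 BLZ945 mice at Rebound and from 5 Vehicle mice. Libraries labelled as PDGFRA+ tumour cells (TC) came from 6 Endpoint, 5 Rebound and 5 Vehicle mice. The 32 libraries come from 17 mice, of which 15 gave both sorts. The XFM genotype is not spelled out, all groups share it, and the agent label reads BLZ945 even for the Vehicle mice, so the stage label was used. The series title names a loop of IGF1, its receptor and PI3K in resistance to CSF-1R inhibition.

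Class I PI3K enzymes add a phosphate to a membrane lipid and so make PIP3, which recruits PDK1 and AKT to the membrane, and AKT in turn restrains GSK3 and, through the TSC complex and the small GTPase Rheb, allows mTOR to promote protein synthesis. The alpha and beta catalytic subunits (Pik3ca, Pik3cb) are made in most cells, while delta and gamma (Pik3cd, Pik3cg), the gamma regulator Pik3r5, the adaptor Pik3ap1 and the phosphatase SHIP-1 (Inpp5d) are best known from leukocytes. In macrophages the pathway acts downstream of CSF-1R, and in gliomas downstream of the PDGF and IGF receptors.

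Several libraries stood apart. Total counts were 9543888 to 15789460 in TAM Endpoint, 15352174 to 19561440 in TAM Rebound and 25556830 to 30383148 in TAM Vehicle, and 4180176 to 14029216 in TC Endpoint, 10501264 to 16460126 in TC Rebound and 13126801 to 22989777 in TC Vehicle. All counts were even in the 22 BLZ945 libraries but not in the 10 Vehicle libraries, for a reason not given in the sources used here. With the BLZ945 counts halved every called member stayed called, but halving changes only the scale of the counts. A difference in how the libraries were handled or counted coincides with BLZ945 in every comparison with Vehicle. It cannot be told apart from the treatment there. The ribosomal RNA gene Rn45s took 0.391% to 2.07% of counts in both sorts of the Vehicle mice 57098 and 57682, against 3.15% or more in every other library. Summed over the 12 myeloid markers, TAM libraries had at least 28157 CPM (counts scaled to a common library size after TMM over all 32 libraries) and TC libraries at most 8224 CPM. The tumour marker Pdgfra, the sorting antigen, had a median of 87.5 CPM in TC Endpoint (47.7 to 446) and 1280 CPM in TC Vehicle (375 to 3067). The ranges overlapped, with 446 CPM in TC Endpoint 49843 and 375 CPM in TC Vehicle 54363. Olig2 had medians of 1.45 and 95.8 CPM in the same groups, without overlap. Astrocyte markers summed to 10818 CPM in TC Vehicle 54363 and to 1806 to 5323 CPM in the other TC Vehicle libraries. TC Vehicle 54363 was left out only where each library was left out in turn. TC Endpoint libraries also carried choroid plexus RNA (summed over 8 markers, 5256 to 187280 CPM, against 9.33 to 518 in TC Vehicle). Most of this sum was the single gene Ttr, at 4966 to 178660 CPM in TC Endpoint and 6.88 to 498 CPM in TC Vehicle. Summed over 6 myelinating oligodendrocyte markers, all 6 TC Endpoint libraries had 18351 to 28959 CPM and TC Rebound 49827 had 15020, against 714 to 2896 in the other TC Rebound libraries and 2502 to 15344 in TC Vehicle. Pericyte and fibroblast markers summed to 71.7 to 4553 CPM in TC Rebound, 199 to 751 in TC Endpoint and 8.85 to 99.6 in TC Vehicle. Within TC Rebound they were lowest in 49827 and highest in 49041. T and NK cell RNA (summed over 8 markers) exceeded 3 times the highest Vehicle library of the sort in 8 libraries. These were TC Endpoint 49823, 49825, 49830 and 49831 with 3798 to 5439 summed CPM and TC Rebound 49827 with 3036, against at most 11.6 in TC Vehicle, and TAM Rebound 49041, 49059 and 49849 with 43.5 to 159, against at most 11.1 in TAM Vehicle. Whether the TC Endpoint libraries and TC Rebound 49827 hold the cells their labels name could not be settled from these markers, so TC is used as the label, and every comparison with these libraries carries that limit. Member calls that ended without the libraries rich in T and NK markers, or without the Vehicle mice low in Rn45s, are named beside the call. Leaving out these sets was chosen after the data were seen. In bulk samples, fewer cells of a type and less RNA per cell cannot be told apart. Below, the values of a group of 5 follow the order of mouse number, and a gene is called where edgeR's quasi-likelihood test gave a Benjamini-Hochberg adjusted p under 0.05 over all genes.

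TAM and TC used different class I catalytic subunits. In Vehicle tumours TAM carried far more of the delta and gamma subunits than TC, and TC carried more of the alpha subunit. Pik3cd, the delta subunit at chr4:149649168-149702571 in mm10, had 453, 350.1, 336, 275 and 310.3 CPM in TAM Vehicle, against 2.03, 20.1, 5.44, 4.02 and 4.54 CPM in TC Vehicle. Every TAM library lay above every TC library, with a log2 fold change of 5.59 ± 0.94 (SE, adjusted p = 1.11e-05). Pik3cg, the gamma subunit at chr12:32173473-32208659, had 430, 393, 655, 703 and 219 CPM in TAM Vehicle, against 2.13, 4.69, 5.08, 2.76 and 2.64 CPM in TC Vehicle. Again the groups did not overlap, and the log2 fold change was 7.11 ± 1.02 (SE, adjusted p = 1.01e-06). Pik3ca, the alpha subunit that is often mutated in cancers, had 25.6, 25.5, 30.7, 35.8 and 20.5 CPM in TAM Vehicle, against 35.7, 59.8, 56.6, 69.4 and 32.8 CPM in TC Vehicle. Its ranges overlapped only where the lowest TC libraries met the highest TAM libraries, and the log2 fold change was -0.88 ± 0.22 (SE, adjusted p = 0.00120). Pik3cb, the beta subunit, averaged 22.1 ± 9.11 CPM in TAM Vehicle and 12.7 ± 2.73 CPM in TC Vehicle (SD, n = 5 each), a log2 fold change of 0.80 ± 0.27 (SE, adjusted p = 0.0121). Without TAM Vehicle 54359 it was 0.59 (adjusted p = 0.0731). At the other stages Pik3cb was higher in TAM by 2.01 ± 0.25 (SE, adjusted p = 2.29e-07) at Endpoint and 1.46 ± 0.27 (SE, adjusted p = 5.62e-05) at Rebound. Pik3ca was lower in TAM at Rebound by -0.56 ± 0.22 (SE, adjusted p = 0.0345), with adjusted p = 0.0600 when the mouse was a block and -0.34 ± 0.31 (SE, adjusted p = 0.416) without the libraries rich in T and NK markers.

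Per kilobase of merged exons, delta and gamma together made up 94.7% ± 1.001 (SD, n = 5) of the 4 catalytic subunits in TAM Vehicle, against 16.2% ± 8.58 (SD, n = 5) in TC Vehicle. The alpha subunit alone was 2.59% ± 0.312 of that sum in TAM Vehicle and 62.99% ± 9.67 in TC Vehicle (SD, n = 5 each). Within TAM, the alpha share ran through 2.59% ± 0.312 at Vehicle, 9.67% ± 0.917 at Endpoint and 5.59% ± 1.22 at Rebound, and the ranges of the 3 stages did not overlap. The beta share overlapped between Endpoint and Rebound but not with Vehicle, at 2.69% ± 1.10 at Vehicle, 6.83% ± 0.914 at Endpoint and 5.19% ± 0.896 at Rebound. The delta and gamma shares were 36.03% ± 4.55 and 47.5% ± 5.12 in TAM Endpoint, against 48.1% ± 11.7 and 46.7% ± 12.6 in TAM Vehicle. In TC the alpha share was 17.9% ± 12.6 at Endpoint and 60.5% ± 25.4 at Rebound (SD, n = 6 and 5), and the delta share 52.5% ± 18.6 and 19.5% ± 23.5. The TC Rebound spread comes from mouse 49827, in which delta and gamma made up 81.9%, against 7.91% to 14.5% in the other 4 TC Rebound libraries. Leaving out the libraries rich in T and NK markers moved the TC Endpoint means to 32.8% for alpha and 30.1% for delta. These shares are descriptions, with no test.

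**Figure D1:**
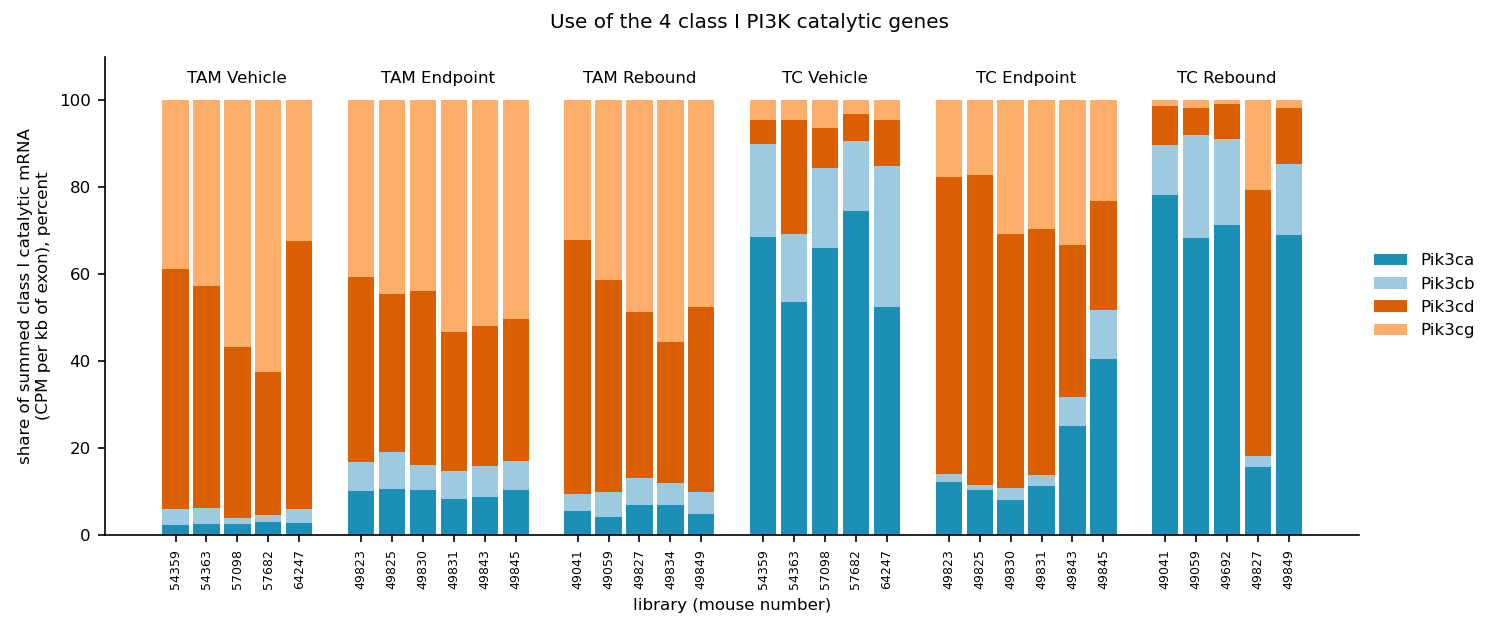
Share of each class I catalytic subunit among Pik3ca, Pik3cb, Pik3cd and Pik3cg, in percent of CPM per kilobase of merged exons, for each library by group. Delta and gamma make up 81.0% to 96.1% in every TAM library, and 9.45% to 30.7% in TC Vehicle.

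The partners of these subunits split in the same way. Pik3r5, which docks the gamma subunit to G protein signals (chr11:68432121-68497849), had 121, 124, 89.5, 99.2 and 79.4 CPM in TAM Vehicle, against 0.906, 1.41, 1.57, 0.0987 and 0.602 CPM in TC Vehicle. Pik3ap1 (BCAP), an adaptor that brings PI3K to immune receptors (chr19:41272377-41385102), had 423, 291, 519, 431 and 378 CPM in TAM Vehicle, against 1.28, 1.01, 5.80, 2.21 and 7.27 CPM in TC Vehicle. Inpp5d, the phosphatase that removes a phosphate from PIP3 in blood cells (chr1:87620312-87720507), had 1552, 1208, 1494, 1587 and 1092 CPM in TAM Vehicle, against 27.8, 50.9, 16.9, 5.83 and 25.3 CPM in TC Vehicle. For all 3 genes each TAM library lay above each TC library. The log2 fold changes were 6.81 ± 1.22 (SE, adjusted p = 2.90e-05), 6.85 ± 1.01 (SE, adjusted p = 1.57e-06) and 5.77 ± 1.05 (SE, adjusted p = 3.34e-05). Per kilobase, Inpp5d had the highest level of the 34 genes in TAM Vehicle at 182 CPM per kilobase, ahead of the translation factor Eif4b at 76.1 and Pik3ap1 at 73.3, and Deptor the lowest at 0.45. In TC Vehicle the order began with Eif4b at 69.6, Eif4e at 38.5 and Gsk3b at 30.7 CPM per kilobase.

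The promoter windows of these leukocyte genes are shown because their levels move together between the sorts. Each window runs from 250 bases before to 50 after a RefSeq start site (GRCm38.p6) and is printed in the direction of the gene, with GAGGAA, the core bound by the myeloid factor PU.1, or its reverse complement TTCCTC in capitals. The windows below lie at chr19:41385053-41385352 (minus strand), chr1:87620062-87620361 (plus strand) and chr12:32208610-32208909 (minus strand).
Pik3ap1: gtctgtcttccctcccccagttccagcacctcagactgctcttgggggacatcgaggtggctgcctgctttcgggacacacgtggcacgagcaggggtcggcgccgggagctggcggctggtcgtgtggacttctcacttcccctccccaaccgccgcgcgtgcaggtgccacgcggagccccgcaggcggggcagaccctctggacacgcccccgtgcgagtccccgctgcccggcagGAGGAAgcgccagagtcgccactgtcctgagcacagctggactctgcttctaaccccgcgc
Inpp5d: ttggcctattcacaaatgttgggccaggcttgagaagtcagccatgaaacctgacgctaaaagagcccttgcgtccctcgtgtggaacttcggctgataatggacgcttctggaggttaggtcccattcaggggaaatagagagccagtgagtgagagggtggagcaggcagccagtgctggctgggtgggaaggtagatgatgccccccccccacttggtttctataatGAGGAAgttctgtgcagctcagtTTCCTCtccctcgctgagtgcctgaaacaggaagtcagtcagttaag
Pik3cg: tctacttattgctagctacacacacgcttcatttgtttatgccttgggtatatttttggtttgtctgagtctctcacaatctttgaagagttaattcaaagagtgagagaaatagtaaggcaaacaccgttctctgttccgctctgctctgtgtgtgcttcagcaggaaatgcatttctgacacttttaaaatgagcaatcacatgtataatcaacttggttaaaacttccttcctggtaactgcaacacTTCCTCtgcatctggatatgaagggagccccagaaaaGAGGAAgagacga
The 6 letters occur once in the Pik3ap1 window, and on both strands in the Inpp5d and Pik3cg windows. None of the windows of Pik3cd or Pik3r5 holds them, so 3 of 5 leukocyte genes have a match, and 11 of the 31 pathway genes with a window do. Among all 32851 windows in that table, 28.28% hold a match, and 31.25% of all 27025 genes have a match in some window. A match describes these letters and is not a binding site.

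Across the pathway in Vehicle tumours, 12 genes were called higher and 10 lower in TAM than in TC, against 54.8% of all genes called (25.6% higher and 29.2% lower). At Endpoint the counts were 7 higher and 7 lower, against 51.1% of all genes called (18.7% higher and 32.4% lower), and at Rebound 9 and 8, against 47.8% (20.4% higher and 27.4% lower). The median log2 fold change of the 34 genes was 0.02 at Vehicle, 0.12 at Endpoint and -0.13 at Rebound, beside -0.12, -0.19 and -0.16 over all genes. Called higher in TAM at all 3 stages were Pik3cb, Pik3ap1, Inpp5d, Rptor and Eif4ebp1. Rptor encodes raptor, the scaffold of mTOR complex 1, and averaged 139.9 ± 49.8 CPM in TAM Vehicle and 29.00 ± 9.10 CPM in TC Vehicle (SD, n = 5 each). TAM and TC libraries did not overlap for Rptor at any stage, with log2 fold changes of 2.27 ± 0.34 at Vehicle, 1.97 ± 0.31 at Endpoint and 1.17 ± 0.33 at Rebound (SE, adjusted p = 1.71e-06, 5.46e-06 and 0.00400). At Rebound the lowest TAM and the highest TC library nearly met, at 49.5 and 49.4 CPM, both of mouse 49059. Eif4ebp1, which encodes the translation repressor that mTOR phosphorylates, averaged 53.5 ± 6.79 CPM in TAM Endpoint and 16.8 ± 5.61 CPM in TC Endpoint (SD, n = 6 each), without overlap. Its log2 fold change was 1.67 ± 0.35 (SE, adjusted p = 0.000232) at Endpoint, 1.31 ± 0.38 (SE, adjusted p = 0.00398) at Vehicle and 0.94 ± 0.37 (SE, adjusted p = 0.0387) at Rebound. Without the libraries rich in T and NK markers the Rebound value was 0.29 ± 0.52 (SE, adjusted p = 0.710).

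Called lower in TAM at all 3 stages were Pik3r3, Akt2, Gsk3b, Phlpp1 and Mapkap1. Pik3r3, a regulatory subunit of class IA PI3K, had 5.52, 0.765, 5.19, 7.39 and 4.03 CPM in TAM Vehicle, against 48.9, 34.1, 57.7, 100 and 19.5 CPM in TC Vehicle. The groups did not overlap at any stage, with log2 fold changes of -3.50 ± 0.55 at Vehicle, -2.96 ± 0.49 at Endpoint and -2.62 ± 0.53 at Rebound (SE, adjusted p = 3.56e-06, 1.37e-05 and 0.000146). Phlpp1, a phosphatase that removes an activating phosphate from AKT, had 9.76, 5.74, 5.10, 4.31 and 2.76 CPM in TAM Vehicle, against 48.8, 65.02, 52.3, 65.3 and 42.7 CPM in TC Vehicle, a log2 fold change of -3.31 ± 0.33 (SE, adjusted p = 1.78e-09). Here too no stage showed overlap, and the value was -1.23 ± 0.28 (SE, adjusted p = 0.000659) at Endpoint and -2.64 ± 0.32 (SE, adjusted p = 1.15e-07) at Rebound. Akt2, the AKT isoform best known from insulin action, had log2 fold changes of -0.75 ± 0.22, -1.19 ± 0.20 and -1.02 ± 0.22 at Vehicle, Endpoint and Rebound (SE, adjusted p = 0.00453, 1.89e-05 and 0.000326). Without the Vehicle mice low in Rn45s its Vehicle value was -0.60 ± 0.26 (SE, adjusted p = 0.0622). Gsk3b, a kinase that AKT inhibits, had -0.95 ± 0.22, -0.47 ± 0.20 and -0.96 ± 0.22 at the same stages (SE, adjusted p = 0.000476, 0.0446 and 0.000547). Its Endpoint call was lost without the libraries rich in T and NK markers, at -0.57 ± 0.30 (SE, adjusted p = 0.127). Mapkap1 (SIN1), a subunit of mTOR complex 2, had -0.60 ± 0.20, -0.64 ± 0.18 and -0.76 ± 0.20 (SE, adjusted p = 0.0117, 0.00474 and 0.00250), and -0.50 ± 0.26 (SE, adjusted p = 0.126) at Vehicle without the mice low in Rn45s.

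The main regulatory subunit and the AKT isoforms differed between sorts by stage. Pik3r1, which stabilises the class IA catalytic subunits, had 49.4, 58.3, 90.5, 47.7 and 42.4 CPM in TAM Vehicle, against 142, 118, 224, 133 and 153 CPM in TC Vehicle. All TAM libraries were lower than all TC libraries, with a log2 fold change of -1.42 ± 0.21 (SE, adjusted p = 1.95e-06), and -0.98 ± 0.21 (SE, adjusted p = 0.000308) at Rebound. At Endpoint it averaged 109 ± 22.2 CPM in TAM and 105 ± 8.51 CPM in TC (SD, n = 6 each), which was not called. Akt1, the most widely made AKT isoform, was called higher in TAM at Endpoint alone of the 3 stages, with between 92.7 and 132 with a median of 107 CPM in TAM Endpoint and between 34.8 and 70.97 with a median of 42.6 CPM in TC Endpoint. The groups did not overlap, and the log2 fold change was 1.28 ± 0.16 (SE, adjusted p = 2.45e-07). At Endpoint the difference between sorts was not called for Pik3cd, Pik3cg or Pik3r5, and the groups overlapped for Pik3cd and Pik3r5 but not for Pik3cg (between 192 and 287 with a median of 240.3 CPM in TAM Endpoint and between 15.6 and 108 with a median of 83.1 CPM in TC Endpoint). Pik3ap1 had 2.65 ± 0.76 (SE, adjusted p = 0.00467) and Inpp5d 2.88 ± 0.84 (SE, adjusted p = 0.00524) there. Without TC Endpoint 49823, 49825, 49830 and 49831, Pik3cd was 2.26 ± 0.62 (SE, adjusted p = 0.00558), Pik3cg 2.73 ± 0.50 (SE, adjusted p = 0.000149) and Pik3r5 2.51 ± 0.67 (SE, adjusted p = 0.00432), and 11 genes were called higher and 5 lower. In that fit 6946 of all genes were called, 36.3% of them higher, against 36.6% with all libraries. At Rebound, Pik3cd had 2.72 ± 0.82 (SE, adjusted p = 0.00721) and Pik3cg 4.42 ± 0.89 (SE, adjusted p = 0.000169). Their partners had 3.40 ± 1.03 (SE, adjusted p = 0.00769) for Pik3r5, 6.84 ± 1.01 (SE, adjusted p = 2.68e-06) for Pik3ap1 and 5.13 ± 1.02 (SE, adjusted p = 0.000137) for Inpp5d. Without TC Rebound 49827 and the TAM Rebound libraries rich in T and NK markers the value was 5.05 ± 0.59 (SE, adjusted p = 4.16e-07) for Pik3cd and 8.35 ± 0.52 (SE, adjusted p = 1.35e-10) for Pik3cg.

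**Figure D2:**
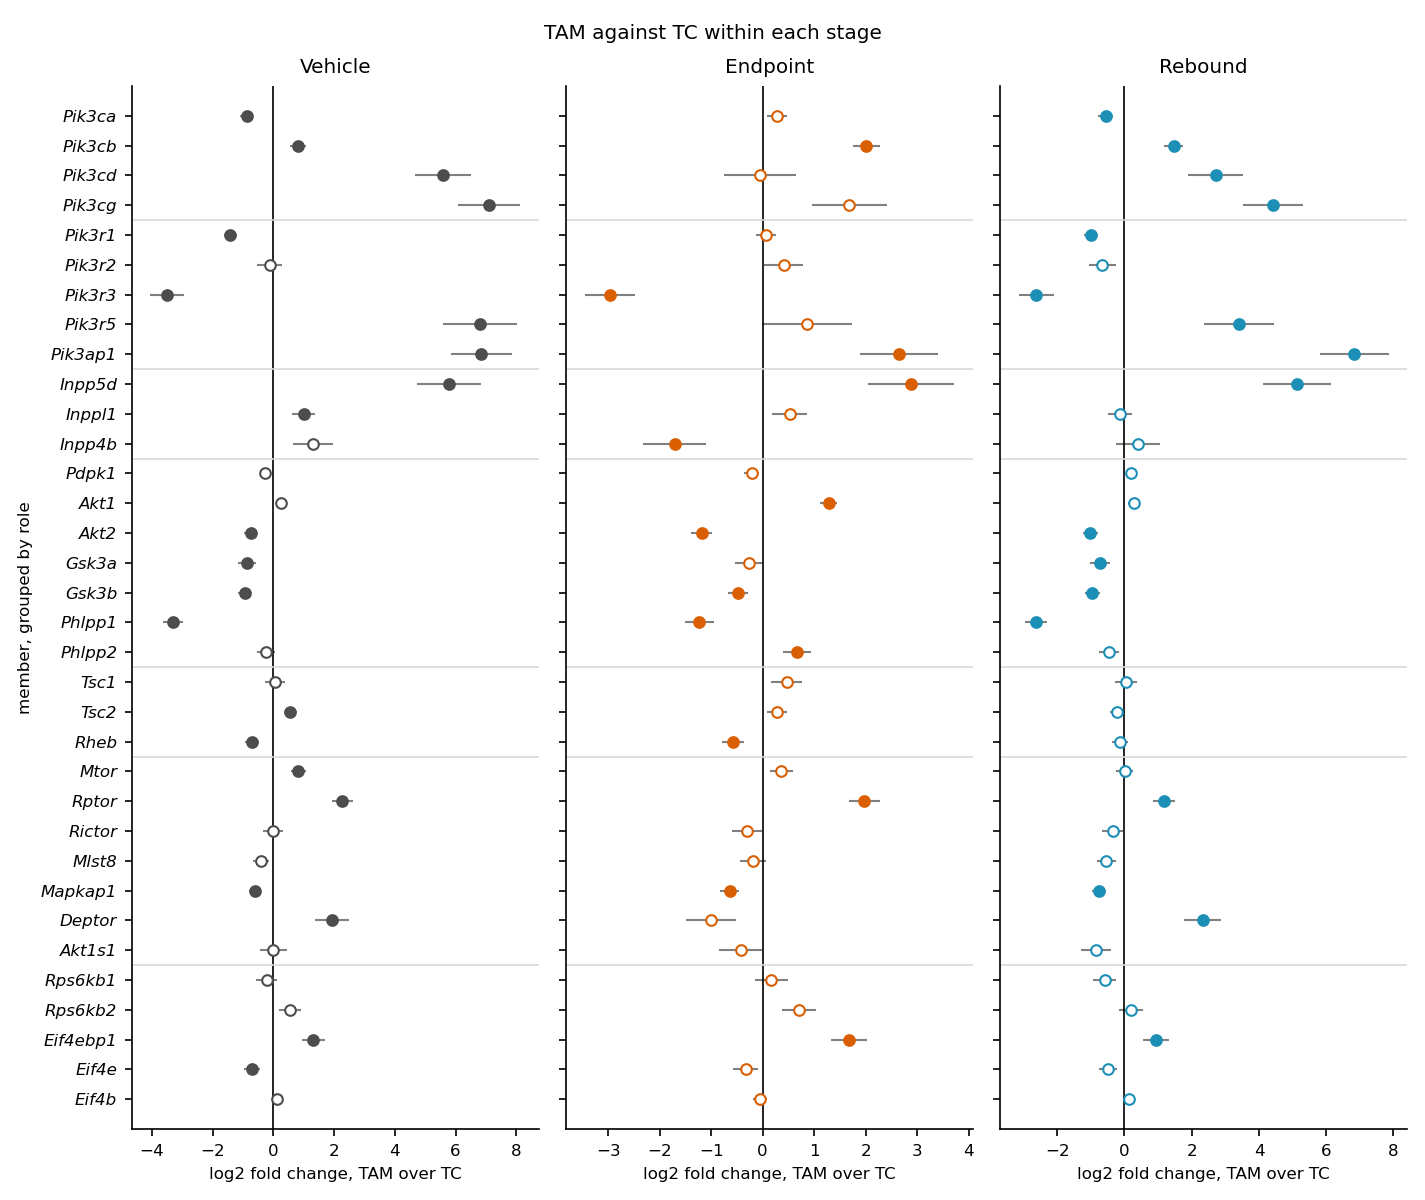
Log2 fold change of TAM against TC (x axis, log2 units) for each of the 34 genes at Vehicle, Endpoint and Rebound, from edgeR; bars are standard errors and filled points are called. At Vehicle, 12 genes were called to the right of 0 and 10 to the left.

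The remaining differences between the sorts were smaller or confined to fewer stages. Mtor, the kinase itself, was higher in TAM at Vehicle (67.1 ± 13.8 CPM in TAM and 37.8 ± 13.6 CPM in TC; log2 fold change 0.83 ± 0.25 (SE, adjusted p = 0.00604)). Deptor, a protein that binds and inhibits mTOR, was higher in TAM at Vehicle (1.93 ± 0.55) and Rebound (2.32 ± 0.56), with adjusted p = 0.00387 and 0.00105. At low counts it averaged 4.01 ± 0.981 CPM in TAM Vehicle and 1.05 ± 0.250 CPM in TC Vehicle, and without the mice low in Rn45s the Vehicle value was 1.75 ± 0.75 (SE, adjusted p = 0.0587). Rheb, the GTPase that activates mTOR complex 1, was lower in TAM at Vehicle (-0.69 ± 0.24 (SE, adjusted p = 0.0137)) and Endpoint (-0.58 ± 0.21 (SE, adjusted p = 0.0257)). With the mouse as a block its Endpoint adjusted p was 0.0627. Rheb was at 271.8 CPM in TC Endpoint 49845 and at 101.5 to 131.4 CPM in the other TC Endpoint libraries. TAM Endpoint had 74.4 to 133 CPM, so the sorts overlapped there. Gsk3a was lower in TAM at Vehicle (-0.88 ± 0.30 (SE, adjusted p = 0.0144)) and Rebound (-0.72 ± 0.30 (SE, adjusted p = 0.0497)), and with the mouse as a block the Rebound adjusted p was 0.0828. Neither Gsk3a call held without the libraries that stood apart, at -0.79 ± 0.37 (SE, adjusted p = 0.0811) for Vehicle without the mice low in Rn45s and -0.56 ± 0.43 (SE, adjusted p = 0.339) for Rebound without the libraries rich in T and NK markers. Eif4e, the cap-binding factor that Eif4ebp1 product restrains, was lower in TAM at Vehicle (-0.70 ± 0.26 (SE, adjusted p = 0.0242)). Tsc2, which keeps Rheb inactive, was higher at Vehicle by 0.55 ± 0.21 (SE, adjusted p = 0.0278), with adjusted p = 0.0691 when the mouse was a block and 0.0952 by DESeq2. Its exons share 693 bases with the opposite-strand gene Pkd1, and the library kit did not mark strand. Inppl1 (SHIP-2), a PIP3 phosphatase made in many tissues, was higher at Vehicle by 1.00 ± 0.37 (SE, adjusted p = 0.0237), a call that leaving out any of 7 of the 10 Vehicle libraries ended, with 0.79 (adjusted p = 0.0916) without TAM Vehicle 64247. Inpp4b, a phosphatase of a further PI3K lipid product, was lower in TAM at Endpoint (-1.71 ± 0.61 (SE, adjusted p = 0.0217)) but 2.48 ± 0.45 (SE, adjusted p = 0.000134) without the libraries rich in T and NK markers. With the mouse as a block its adjusted p was 0.280. Phlpp2, a relative of Phlpp1, was higher in TAM at Endpoint by 0.67 ± 0.27 (SE, adjusted p = 0.0422), with adjusted p = 0.154 when the mouse was a block and 0.59 ± 0.45 (SE, adjusted p = 0.299) without the libraries rich in T and NK markers. Not called at any stage were Akt1s1, Eif4b, Mlst8, Pdpk1, Pik3r2, Rictor, Rps6kb1, Rps6kb2 and Tsc1.

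In TAM, the PI3K enzyme set shifted at Endpoint: the leukocyte-type subunits, their partners and SHIP-1 fell, and the alpha catalytic subunit and its regulator Pik3r1 rose. Of the 34 genes, 6 were called higher and 11 lower in TAM Endpoint than in TAM Vehicle, against 33.0% of all genes called (13.7% higher and 19.3% lower). The median of the 34 was 0.03, beside -0.03 over all genes. Pik3ap1 had between 90.8 and 148 with a median of 113 CPM in TAM Endpoint, against 423, 291, 519, 431 and 378 CPM in TAM Vehicle. The groups did not overlap, and its log2 fold change, the largest decrease among the 34, was -1.69 ± 0.16 (SE, adjusted p = 1.75e-06). Pik3cd had between 105 and 184 with a median of 124 CPM in TAM Endpoint, against 453, 350.1, 336, 275 and 310.3 CPM in TAM Vehicle. No Endpoint library reached the Vehicle range, and the log2 fold change was -1.20 ± 0.19 (SE, adjusted p = 0.000124). Pik3r5 averaged 43.4 ± 9.54 CPM in TAM Endpoint (SD, n = 6) and 103 ± 19.3 CPM in TAM Vehicle (SD, n = 5), without overlap, at -1.12 ± 0.20 (SE, adjusted p = 0.000362). Inpp5d averaged 854 ± 114 CPM in TAM Endpoint and 1387 ± 222 CPM in TAM Vehicle, without overlap, at -0.58 ± 0.15 (SE, adjusted p = 0.00604). Pik3cg averaged 243 ± 33.7 CPM in TAM Endpoint and 479.8 ± 199 CPM in TAM Vehicle, with overlap, at -0.86 ± 0.23 (SE, adjusted p = 0.00811). Its Vehicle values of 655 and 703 CPM came from mice 57098 and 57682, and without these mice it had -0.40 ± 0.21 (SE, adjusted p = 0.143). Over the 12 myeloid markers, summed CPM was 32035 to 36687 in TAM Endpoint and 49869 to 90670 in TAM Vehicle; the part of this in the decreases was not tested.

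Pik3ca had between 41.2 and 68.1 with a median of 51.4 CPM in TAM Endpoint, against 25.6, 25.5, 30.7, 35.8 and 20.5 CPM in TAM Vehicle. All Endpoint libraries were above all Vehicle libraries, at 1.07 ± 0.18 (SE, adjusted p = 0.000231). Pik3r1 had between 79.1 and 134 with a median of 112 CPM in TAM Endpoint, against 49.4, 58.3, 90.5, 47.7 and 42.4 CPM in TAM Vehicle, and overlapped with mouse 57098 alone among the Vehicle mice, at 1.04 ± 0.20 (SE, adjusted p = 0.000584). In a fit of all 6 groups, where the spread is shared with TC, the standard errors of the leukocyte genes were larger and their decreases were not called, with adjusted p = 0.220 for Pik3cd, 0.376 for Pik3cg, 0.355 for Pik3r5, 0.0880 for Pik3ap1 and 0.594 for Inpp5d, while the fold changes were of the same sign.

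**Figure D3:**
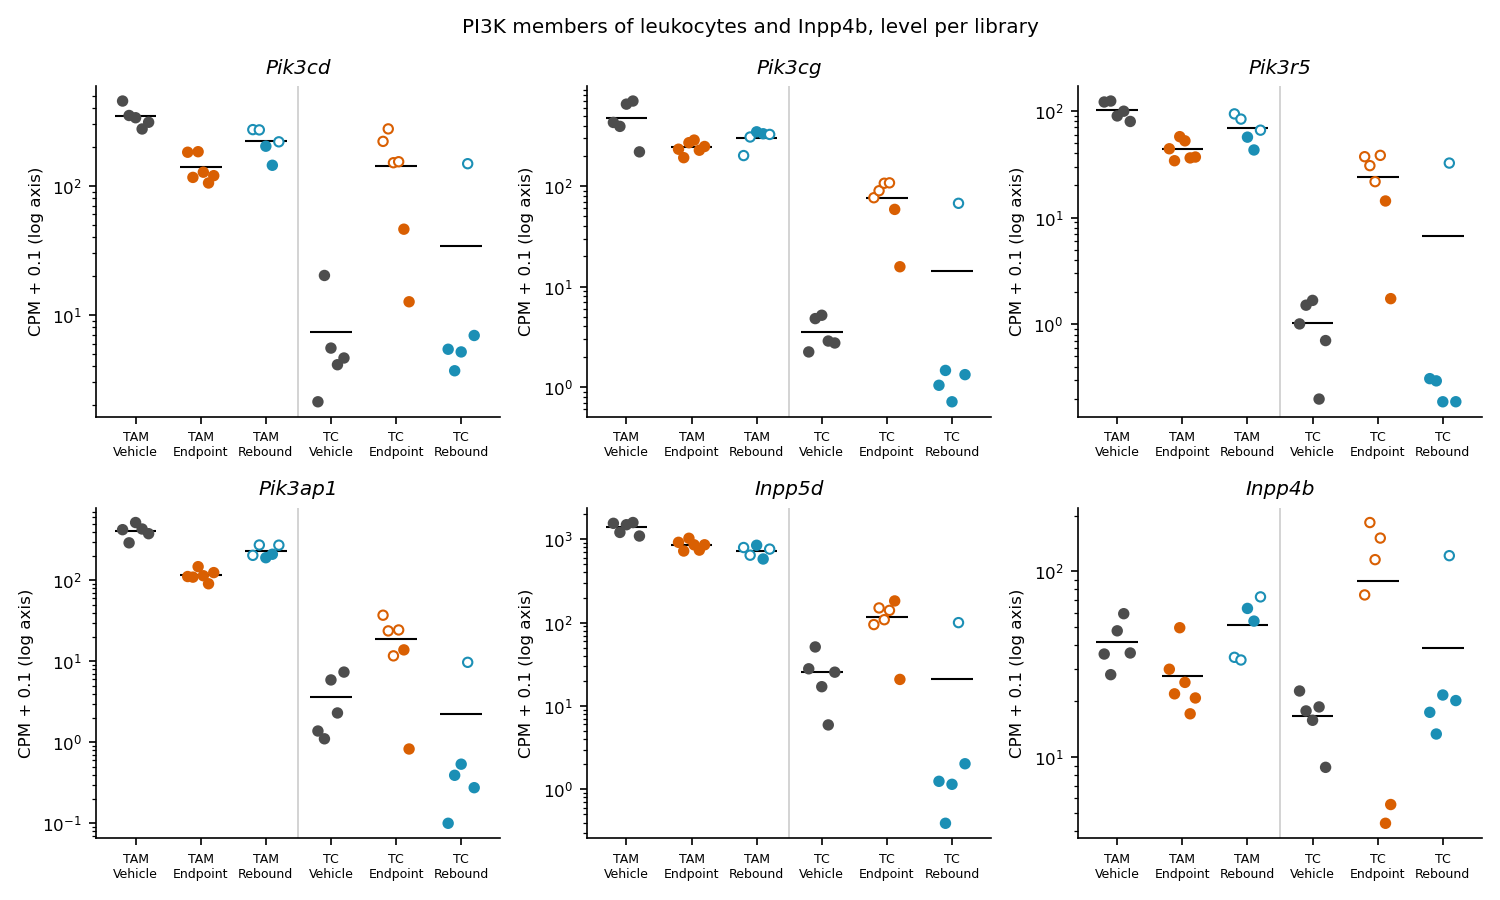
CPM + 0.1 on a log axis for Pik3cd, Pik3cg, Pik3r5, Pik3ap1, Inpp5d and Inpp4b in every library by group; black lines are group means and open circles are libraries rich in T and NK markers. For Pik3cd, the 6 TAM Endpoint libraries lie at 105 to 184 CPM, below the 5 TAM Vehicle libraries at 275 to 453.

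Further down the pathway, TAM Endpoint differed from TAM Vehicle in the AKT isoforms, the phosphatases and the mTOR regulators. Akt1 had between 92.7 and 132 with a median of 107 CPM in TAM Endpoint, against 75.4, 93.7, 57.7, 64.01 and 68.99 CPM in TAM Vehicle, where 1 Vehicle library, of mouse 54363, lay within the Endpoint range. It rose by 0.74 ± 0.15 (SE, adjusted p = 0.00115) on the log2 scale. Akt2 went the other way, with 30.3 ± 4.69 CPM in TAM Endpoint and 50.3 ± 15.5 CPM in TAM Vehicle, at -0.61 ± 0.19 (SE, adjusted p = 0.0186). Without Vehicle 64247 it was -0.46 (adjusted p = 0.0802). The AKT phosphatase genes were both called higher. Phlpp2 averaged 18.5 ± 5.55 CPM in TAM Endpoint and 8.22 ± 3.36 CPM in TAM Vehicle, at 1.28 ± 0.30 (SE, adjusted p = 0.00320), and Phlpp1 10.5 ± 1.96 and 5.53 ± 2.61 CPM, at 1.05 ± 0.35 (SE, adjusted p = 0.0260). The Phlpp1 call ended without any of 4 libraries, with 0.89 (adjusted p = 0.0733) without Vehicle 64247, and without the mice low in Rn45s, at 0.91 ± 0.43 (SE, adjusted p = 0.112). The subunits of the TSC complex were called in opposite directions. Tsc2 had between 37.2 and 52.9 with a median of 45.98 CPM in TAM Endpoint, against 107, 97.2, 82.6, 51.4 and 110.4 CPM in TAM Vehicle, at -0.85 ± 0.17 (SE, adjusted p = 0.00113). The Vehicle library of mouse 57682 was the lowest and fell within the Endpoint range. Tsc1 averaged 28.8 ± 8.90 CPM in TAM Endpoint and 17.8 ± 5.28 CPM in TAM Vehicle, at 0.80 ± 0.28 (SE, adjusted p = 0.0319). That call ended without any of 5 libraries, with 0.66 (adjusted p = 0.0832) without Endpoint 49830, and without the mice low in Rn45s, at 0.84 ± 0.34 (SE, adjusted p = 0.0649).

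Among the mTOR complex genes, Mtor had between 34.7 and 46.97 with a median of 39.6 CPM in TAM Endpoint, against 76.3, 72.99, 81.3, 55.5 and 49.6 CPM in TAM Vehicle. Every Endpoint library was lower than every Vehicle library, at -0.62 ± 0.15 (SE, adjusted p = 0.00503). Mlst8, a subunit shared by both mTOR complexes, averaged 12.7 ± 3.01 CPM in TAM Endpoint and 23.7 ± 4.79 CPM in TAM Vehicle, without overlap, at -0.78 ± 0.23 (SE, adjusted p = 0.0150); without the mice low in Rn45s it had -0.63 ± 0.26 (SE, adjusted p = 0.0721). Eif4b, a helicase cofactor that S6 kinase phosphorylates, averaged 217 ± 21.5 CPM in TAM Endpoint and 339.9 ± 55.2 CPM in TAM Vehicle, without overlap, at -0.52 ± 0.14 (SE, adjusted p = 0.00623). Eif4e averaged 84.8 ± 17.03 CPM in TAM Endpoint and 142 ± 43.9 CPM in TAM Vehicle, at -0.63 ± 0.23 (SE, adjusted p = 0.0439), a call lost without any of 7 of 11 libraries and in the absence of the mice low in Rn45s (-0.37 ± 0.25 (SE, adjusted p = 0.267)). Leaving out those mice kept 12 of the 17 calls and gave 8 higher and 11 lower. Of all genes 4827 were called there, 43.6% of them higher, against 41.5% with all libraries. Of the 17 calls, 13 were made without any 1 library. Rictor, the scaffold of mTOR complex 2, averaged 28.8 ± 5.22 CPM in TAM Endpoint and 22.8 ± 10.5 CPM in TAM Vehicle, and Rptor 89.4 ± 17.1 and 139.9 ± 49.8 CPM. Neither was called with all libraries. Without the Vehicle mice low in Rn45s, Rictor was called higher and Rptor lower. The other calls gained there were Pdpk1, Gsk3b and Rps6kb1 higher and Pik3r2 and Eif4ebp1 lower.

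At Rebound, TAM kept part of these differences from Vehicle. Called higher than in Vehicle were 3 genes and lower 4, against 14.7% of all genes called (7.00% higher and 7.73% lower). Pik3ap1 had 204, 274, 191, 210.3 and 273 CPM in TAM Rebound, against 423, 291, 519, 431 and 378 CPM in TAM Vehicle, and every Rebound library was lower, at -0.73 ± 0.17 (SE, adjusted p = 0.00790). Inpp5d had 796, 644, 847, 579.6 and 762 CPM in TAM Rebound, against 1552, 1208, 1494, 1587 and 1092 CPM in TAM Vehicle, again without overlap, at -0.84 ± 0.16 (SE, adjusted p = 0.00239). These were the 2 calls made without any 1 library. Pik3ca averaged 40.3 ± 7.77 CPM in TAM Rebound and 27.6 ± 5.83 CPM in TAM Vehicle, at 0.64 ± 0.19 (SE, adjusted p = 0.0276), and Pik3r1 87.2 ± 11.6 and 57.7 ± 19.2 CPM, at 0.69 ± 0.20 (SE, adjusted p = 0.0278). Without 1 library their values were 0.51 (adjusted p = 0.0810, without Rebound 49827) and 0.59 (adjusted p = 0.0734, without Vehicle 64247). Pdpk1, which encodes the AKT-activating kinase PDK1, had 70.6, 69.7, 56.6, 57.7 and 63.5 CPM in TAM Rebound, against 42.4, 48.7, 56.1, 51.7 and 36.6 CPM in TAM Vehicle, at 0.52 ± 0.14 (SE, adjusted p = 0.0192). The lowest Rebound value was just above the highest Vehicle value, and without Vehicle 64247 the value was 0.43 (adjusted p = 0.0617). Tsc2 had -0.62 ± 0.18 (SE, adjusted p = 0.0272) and Rptor -0.80 ± 0.23 (SE, adjusted p = 0.0287). Without Vehicle 64247 Tsc2 had -0.55 (adjusted p = 0.0674), and without Vehicle 54359 Rptor had -0.63 (adjusted p = 0.0833). Without the TAM Rebound libraries rich in T and NK markers, which left TAM Rebound 49827 and 49834, Pik3ca at 0.90 ± 0.24 (SE, adjusted p = 0.0451), Pik3ap1 at -0.92 ± 0.23 (SE, adjusted p = 0.0385) and Inpp5d at -0.86 ± 0.23 (SE, adjusted p = 0.0487) were called. Of all genes 525 were called there, 55.8% of them higher. The calls of Pik3r1 at 0.63 ± 0.27 (SE, adjusted p = 0.205), Pdpk1 at 0.38 ± 0.20 (SE, adjusted p = 0.304), Tsc2 at -0.69 ± 0.27 (SE, adjusted p = 0.158) and Rptor at -0.77 ± 0.31 (SE, adjusted p = 0.169) ended there. Without the Vehicle mice low in Rn45s, all 7 calls were made, and 7 more brought the counts to 6 higher and 8 lower. Of all genes 3406 were called there, 45.6% of them higher, against 47.5% with all libraries.

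Against TAM Endpoint, TAM Rebound had 4 genes called higher and 3 lower, against 17.6% of all genes called (11.7% higher and 5.90% lower). Pik3ap1 was at 204, 274, 191, 210.3 and 273 CPM in TAM Rebound and between 90.8 and 148 with a median of 113 CPM in TAM Endpoint, without overlap, at 0.96 ± 0.16 (SE, adjusted p = 0.000626). Akt1 was at 74.1, 74.1, 80.6, 62.97 and 71.8 CPM in TAM Rebound and between 92.7 and 132 with a median of 107 CPM in TAM Endpoint, all Rebound libraries being lower, at -0.65 ± 0.15 (SE, adjusted p = 0.00644). Phlpp2 averaged 8.51 ± 2.51 CPM in TAM Rebound and 18.5 ± 5.55 CPM in TAM Endpoint, at -1.15 ± 0.30 (SE, adjusted p = 0.0130). These 3 calls were made without any 1 library. Pik3cd had 0.64 ± 0.19 (SE, adjusted p = 0.0222), Pik3r5 0.62 ± 0.20 (SE, adjusted p = 0.0357), Inpp4b 0.90 ± 0.28 (SE, adjusted p = 0.0308) and Tsc1 -0.81 ± 0.28 (SE, adjusted p = 0.0495). Leaving out a library ended each of these, with 0.58 (adjusted p = 0.0630) for Pik3cd without Rebound 49059, 0.50 (adjusted p = 0.102) for Pik3r5 without Rebound 49041, 0.71 (adjusted p = 0.101) for Inpp4b without Rebound 49849 and -0.70 (adjusted p = 0.119) for Tsc1 without Rebound 49849. Without TAM Rebound 49041, 49059 and 49849, which left TAM Rebound 49827 and 49834, only Pik3ap1 was called (0.78 ± 0.21 (SE, adjusted p = 0.0433)). Of all genes 592 were called there, 81.6% of them higher. The standard errors printed for this fit were larger than with all libraries. Akt1 had -0.64 ± 0.23 (SE, adjusted p = 0.145) there, Phlpp2 -1.05 ± 0.45 (SE, adjusted p = 0.222), Inpp4b 1.10 ± 0.33 (SE, adjusted p = 0.0694), Tsc1 an adjusted p of 0.155, Pik3cd 0.32 ± 0.24 (SE, adjusted p = 0.536) and Pik3r5 0.19 ± 0.25 (SE, adjusted p = 0.744). T and NK markers summed to 7.50 to 159 CPM in TAM Rebound and 5.53 to 22.9 CPM in TAM Endpoint. Neutrophil markers summed to 64.7 to 2749 CPM in TAM Rebound, 3.41 to 171 CPM in TAM Endpoint and 27.4 to 688 CPM in TAM Vehicle. They were highest in TAM Rebound 49041, 49059 and 49849, at 1012, 2749 and 495 CPM. The part of T, NK or neutrophil RNA in the TAM Rebound values was not tested.

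**Figure D4:**
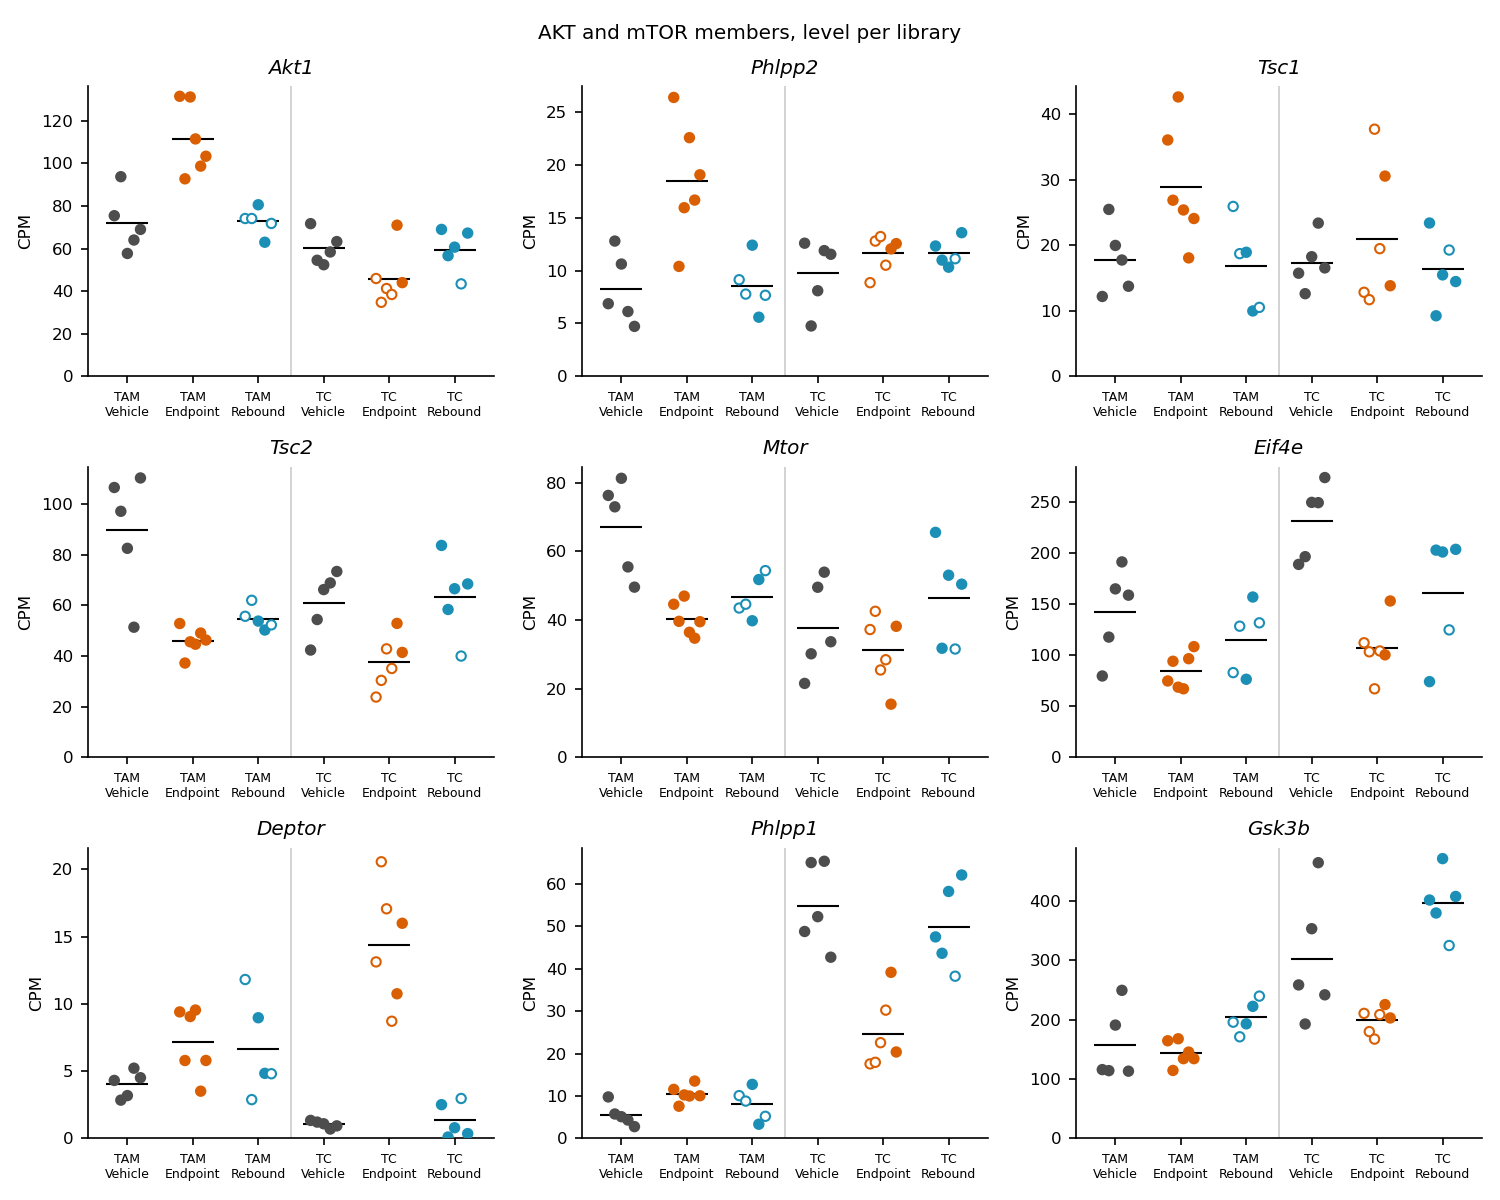
CPM of AKT and mTOR pathway genes in every library by group; black lines are group means and open circles are libraries rich in T and NK markers. Akt1 lies at 92.7 to 132 CPM in TAM Endpoint and at 63.0 to 80.6 CPM in TAM Rebound.

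In the PDGFRA+ sort, Pik3cd, Pik3cg, Pik3r5, Inpp4b and Deptor were called higher at Endpoint than in Vehicle, and Eif4e, Phlpp1, Mlst8, Pik3r2, Tsc2 and Gsk3b lower. The other leukocyte genes were not called, with 2.42 ± 1.19 (SE, adjusted p = 0.138) for Pik3ap1 and 2.21 ± 1.20 (SE, adjusted p = 0.181) for Inpp5d. Of the 34 genes 5 were called higher and 6 lower in TC Endpoint than in TC Vehicle, against 28.7% of all genes called (14.0% higher and 14.8% lower). The median of the 34 was -0.27, beside 0.03 over all genes. Pik3cd had between 12.5 and 276 with a median of 152 CPM in TC Endpoint, against 2.03, 20.1, 5.44, 4.02 and 4.54 CPM in TC Vehicle, at 4.34 ± 1.18 (SE, adjusted p = 0.0147). The lowest Endpoint library, of mouse 49845, lay within the Vehicle range. Pik3cg had between 15.6 and 108 with a median of 83.1 CPM in TC Endpoint, against 2.13, 4.69, 5.08, 2.76 and 2.64 CPM in TC Vehicle, without overlap, at 4.47 ± 1.20 (SE, adjusted p = 0.0138). Pik3r5 averaged 23.9 ± 14.3 CPM in TC Endpoint and 0.917 ± 0.600 CPM in TC Vehicle, without overlap, at 4.72 ± 1.55 (SE, adjusted p = 0.0332); leaving out any of 8 of 11 libraries ended that call, with adjusted p = 0.0727 without Vehicle 57682. Inpp4b had 74.6, 183, 116 and 151 CPM in TC Endpoint 49823, 49825, 49830 and 49831 but 4.30 and 5.45 CPM in TC Endpoint 49843 and 49845, against 22.6, 17.6, 15.7, 18.5 and 8.71 CPM in TC Vehicle. The 4 high libraries were those with T and NK markers, and the log2 fold change was 2.43 ± 0.88 (SE, adjusted p = 0.0484) with them and -1.77 ± 0.47 (SE, adjusted p = 0.0412) without them. Without those libraries, which left 2 at Endpoint, the value was 3.44 ± 0.56 (SE, adjusted p = 0.00837) for Pik3cg, 2.04 ± 0.73 (SE, adjusted p = 0.101) for Pik3cd and 3.13 ± 1.03 (SE, adjusted p = 0.0795) for Pik3r5, and 2 genes were called higher and 1 lower. Of all genes 1124 were called in that fit, 61.1% of them higher, against 48.6% with all libraries. Without the Vehicle mice low in Rn45s, Pik3cg had 4.54 ± 1.61 (SE, adjusted p = 0.0680) and Pik3cd 3.97 ± 1.53 (SE, adjusted p = 0.0870), and 1 gene was called higher and 4 lower, beside 2683 of all genes called (39.8% of them higher). The other calls that ended there were those of Pik3r5 at 4.56 ± 1.99 (SE, adjusted p = 0.121), Inpp4b at 2.40 ± 1.15 (SE, adjusted p = 0.156), Mlst8 at -0.86 ± 0.34 (SE, adjusted p = 0.0869), Tsc2 at -0.65 ± 0.29 (SE, adjusted p = 0.125) and Gsk3b at -0.27 ± 0.18 (SE, adjusted p = 0.300).

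Within a mouse, Pik3cd in the TC library reached a median of 101% of its level in the TAM library at Endpoint (10.5% to 238%, 6 mice), and 1.46% at Vehicle (5 mice). Pik3r5 reached 56.2% at Endpoint, Pik3cg 35.2%, Pik3ap1 18.2% and Inpp5d 13.4%. The macrophage genes Csf1r and Itgam reached medians of 2.84% and 2.61% at Endpoint. The T cell gene Cd3e had a median of 536 CPM in TC Endpoint and 1.07 CPM in TC Vehicle. In TC Endpoint 49845, whose T and NK markers summed to 10.4 CPM, Pik3cd was at 10.5% of its TAM level. In TC Endpoint 49843, where these markers summed to 30.1 CPM, Pik3cd was at 43.8% of its TAM level. Csf1r was at 16.6% and Itgam at 16.3% in that library. The part of T, NK, myeloid, oligodendrocyte or choroid plexus RNA in the TC Endpoint values was not tested.

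Deptor rose in TC Endpoint in all 6 libraries, with between 8.71 and 20.6 with a median of 14.6 CPM, against 1.33, 1.21, 1.08, 0.691 and 0.926 CPM in TC Vehicle. The groups did not overlap, at 3.78 ± 0.70 (SE, adjusted p = 0.00169), and the value was 3.66 ± 0.89 (SE, adjusted p = 0.0305) without the libraries rich in T and NK markers. Myelinating oligodendrocyte markers were above TC Vehicle in the same 6 libraries, at 18351 to 28959 against 2502 to 15344 summed CPM, and their part in the Deptor value was not tested. Its exons share 303 bases with the opposite-strand gene Gm9920. Of the genes called lower, Eif4e averaged 107 ± 27.6 CPM in TC Endpoint and 231 ± 37.00 CPM in TC Vehicle, without overlap, at -1.11 ± 0.26 (SE, adjusted p = 0.00593). Phlpp1 averaged 24.6 ± 8.48 CPM in TC Endpoint and 54.8 ± 10.1 CPM in TC Vehicle, without overlap, at -1.14 ± 0.24 (SE, adjusted p = 0.00338). Mlst8 averaged 14.6 ± 6.24 and 31.5 ± 9.22 CPM, at -1.10 ± 0.30 (SE, adjusted p = 0.0131). Pik3r2, a further class IA regulatory subunit, had -1.07 ± 0.39 (SE, adjusted p = 0.0499), Tsc2 -0.68 ± 0.23 (SE, adjusted p = 0.0381) and Gsk3b -0.59 ± 0.21 (SE, adjusted p = 0.0416). Each of these last 3 calls was lost without any of 6 or more libraries, with -0.87 (adjusted p = 0.134) for Pik3r2 and -0.61 (adjusted p = 0.0879) for Tsc2 without Vehicle 64247, and -0.38 (adjusted p = 0.144) for Gsk3b without Vehicle 57682. Without the libraries rich in T and NK markers each of these 6 calls was lost, with -0.88 ± 0.39 (SE, adjusted p = 0.179) for Eif4e and -0.88 ± 0.34 (SE, adjusted p = 0.126) for Phlpp1. Pdgfra had a median of 87.5 CPM in TC Endpoint and 1280 CPM in TC Vehicle. The part of this in the TC Endpoint values was not tested.

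TC Rebound was set against both other stages. The part of pericyte and fibroblast RNA in the TC Rebound values was not tested. Against TC Vehicle, 0 of the 34 genes were called, beside 0.0734% of all genes (0.0400% higher and 0.0334% lower). At an unadjusted p under 0.05 edgeR gave 1, Inppl1, and DESeq2 called 0 as well. Pik3cd had 5.32, 3.60, 5.07, 148 and 6.83 CPM in TC Rebound, against 2.03, 20.1, 5.44, 4.02 and 4.54 CPM in TC Vehicle, with the library of mouse 49827 far above the rest. That library was also the highest of its group for Pik3cg at 67.3 CPM, Pik3r5 at 32.3, Pik3ap1 at 9.63, Inpp5d at 99.9 and Inpp4b at 122 CPM. Its T and NK markers summed to 3036 CPM, and its Csf1r was 1.14% of that in the TAM library of the mouse, while its Pik3cd was 73.2%. Without it, Inpp5d and Pik3ap1 were called lower in TC Rebound than in TC Vehicle, at -4.48 (adjusted p = 0.00308) and -3.87 (adjusted p = 0.0443). The other 4 TC Rebound libraries had 0.292 to 1.93 CPM of Inpp5d, against 27.8, 50.9, 16.9, 5.83 and 25.3 CPM in TC Vehicle, and the 12 myeloid markers summed to a median of 45.0 CPM in TC Rebound and 834 CPM in TC Vehicle; their part was not tested. Without the Vehicle mice low in Rn45s, Gsk3b was called higher (0.80 ± 0.20 (SE, adjusted p = 0.0399)).

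Against TC Endpoint, TC Rebound had 5 genes called higher and 1 lower, against 25.1% of all genes called (13.6% higher and 11.5% lower). Pericyte and fibroblast markers had medians of 1248.5 summed CPM in TC Rebound and 390 in TC Endpoint, and their part was not tested. Deptor had 2.50, 0.0972, 0.787, 2.96 and 0.350 CPM in TC Rebound, and all were lower than any of the TC Endpoint libraries (between 8.71 and 20.6 with a median of 14.6 CPM), at -3.41 ± 0.69 (SE, adjusted p = 0.00313). Gsk3b averaged 397 ± 52.8 CPM in TC Rebound and 199 ± 21.5 CPM in TC Endpoint, without overlap, at 1.01 ± 0.21 (SE, adjusted p = 0.00345). Pik3r2 averaged 56.9 ± 15.1 and 20.9 ± 11.4 CPM, at 1.46 ± 0.40 (SE, adjusted p = 0.0144), and Phlpp1 49.9 ± 9.99 and 24.6 ± 8.48 CPM, at 1.03 ± 0.24 (SE, adjusted p = 0.00637). Pik3r1 had 0.74 ± 0.21 (SE, adjusted p = 0.0164) and Tsc2 0.76 ± 0.23 (SE, adjusted p = 0.0256). Without Rebound 49059 Pik3r1 had 0.63 (adjusted p = 0.0541), and without Rebound 49041 Tsc2 had 0.65 (adjusted p = 0.0702). Without the libraries rich in T and NK markers, 1 gene was called higher and 6 lower. Of all genes 2526 were called there, 35.1% of them higher, against 54.3% with all libraries. The called pathway genes were Inpp4b at 1.91 ± 0.48 (SE, adjusted p = 0.0202), and Deptor with the 5 leukocyte genes, of which Pik3cg had -5.15 ± 0.64 (SE, adjusted p = 0.00143) and Inpp5d -6.51 ± 0.94 (SE, adjusted p = 0.00226). The other calls ended, with 0.98 ± 0.35 (SE, adjusted p = 0.0752) for Gsk3b, 0.85 ± 0.35 (SE, adjusted p = 0.111) for Phlpp1, 0.78 ± 0.35 (SE, adjusted p = 0.136) for Pik3r1, 0.57 ± 0.30 (SE, adjusted p = 0.201) for Tsc2 and 0.98 ± 0.53 (SE, adjusted p = 0.215) for Pik3r2.

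**Figure D5:**
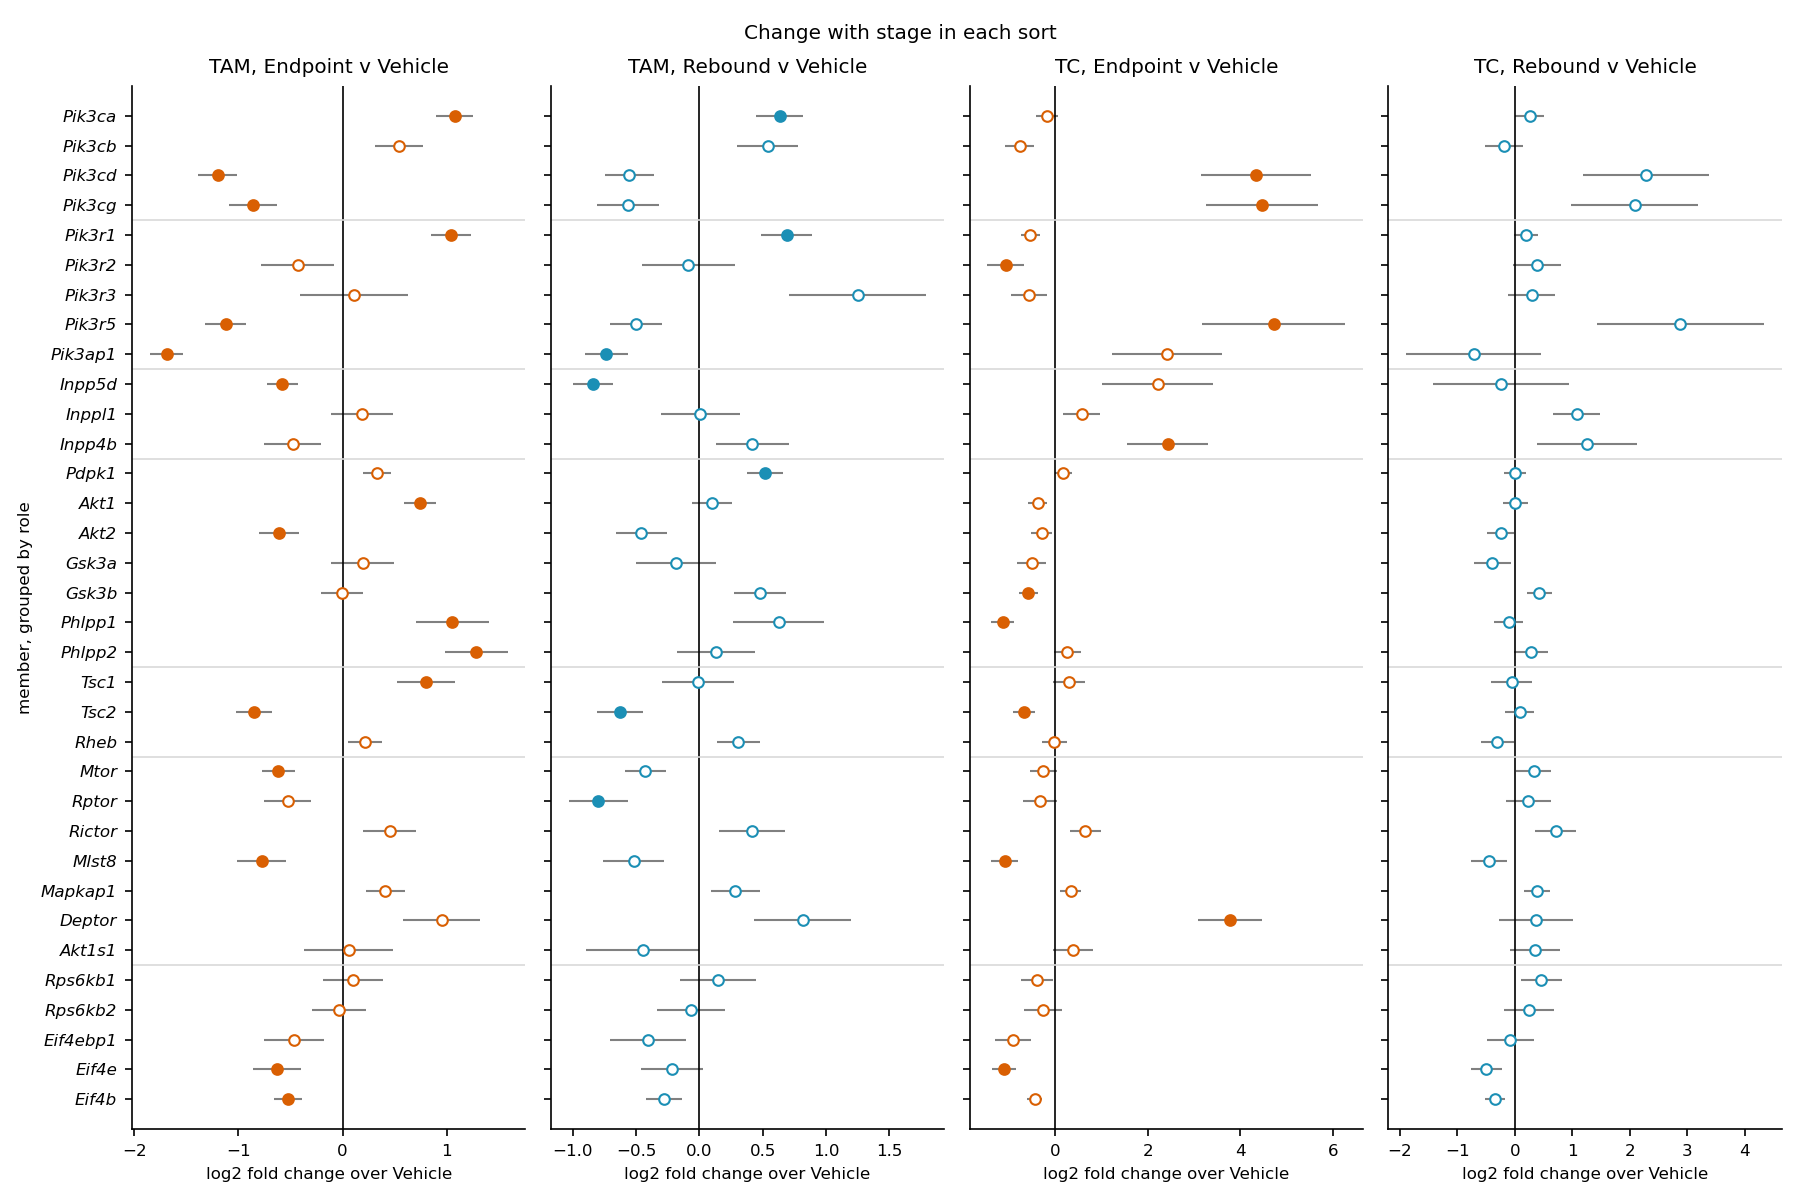
Log2 fold changes by stage (x axis, log2 units) for each of the 34 genes, with Endpoint and Rebound each set against Vehicle in TAM and in TC, from edgeR. The x axes differ in range between panels, bars are standard errors and filled points are called. In TAM 6 genes were called higher and 11 lower at Endpoint against Vehicle, and in TC 5 and 6.

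Whether a stage change differed between the sorts was tested directly, as the TAM change minus the TC change. For Endpoint against Vehicle 5 genes had a positive and 6 a negative difference, against 25.7% of all genes called (8.73% positive and 17.0% negative). The catalytic subunits split by type: Pik3ca had 1.16 ± 0.30 (SE, adjusted p = 0.00527) and Pik3cb 1.21 ± 0.36 (SE, adjusted p = 0.0148), but Pik3cd -5.63 ± 1.12 (SE, adjusted p = 0.000654) and Pik3cg -5.43 ± 1.13 (SE, adjusted p = 0.000984). Pik3r1 had 1.48 ± 0.28 (SE, adjusted p = 0.000470) and Akt1 1.02 ± 0.24 (SE, adjusted p = 0.00248). Phlpp1 was called in opposite directions in the sorts, higher in TAM and lower in TC at Endpoint, with a difference of 2.08 ± 0.42 (SE, adjusted p = 0.000699). Pik3r5 had -5.95 ± 1.40 (SE, adjusted p = 0.00275), Pik3ap1 -4.20 ± 1.11 (SE, adjusted p = 0.00649), Deptor -2.93 ± 0.73 (SE, adjusted p = 0.00435) and Inpp4b -3.02 ± 0.91 (SE, adjusted p = 0.0152). Without the libraries rich in T and NK markers Inpp4b had 1.16 ± 0.50 (SE, adjusted p = 0.121), Pik3cb 1.05 ± 0.46 (SE, adjusted p = 0.124) and Akt1 0.70 ± 0.29 (SE, adjusted p = 0.110), while Pik3cd had -3.33 ± 0.66 (SE, adjusted p = 0.00180), Pik3cg -4.39 ± 0.51 (SE, adjusted p = 1.90e-05) and Pik3ca 1.36 ± 0.37 (SE, adjusted p = 0.0173). With the mouse as a block, Inpp4b had an adjusted p of 0.0891. The calls of Pik3cb at 0.95 ± 0.41 (SE, adjusted p = 0.105) and Inpp4b at -2.74 ± 1.14 (SE, adjusted p = 0.0937) ended without the Vehicle mice low in Rn45s.

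For Rebound against Endpoint, 2 differences were positive and 5 negative, against 20.6% of all genes called (13.4% positive and 7.18% negative). Pik3ap1 had 4.19 ± 1.12 (SE, adjusted p = 0.00941) and Deptor 3.32 ± 0.74 (SE, adjusted p = 0.00237). Pik3r1 had -1.05 ± 0.28 (SE, adjusted p = 0.0101), Akt1 -0.99 ± 0.24 (SE, adjusted p = 0.00442), Phlpp1 -1.41 ± 0.42 (SE, adjusted p = 0.0169), Pik3ca -0.84 ± 0.30 (SE, adjusted p = 0.0431) and Phlpp2 -1.12 ± 0.40 (SE, adjusted p = 0.0475). With the mouse as a block 6 were positive and 2 negative, beside 2314 of all genes called (62.8% of them positive). The calls of Pik3ca, Phlpp1 and Phlpp2 were lost with the block (adjusted p = 0.0632, 0.0550 and 0.219). Without the libraries rich in T and NK markers 6 were called, all positive, beside 2084 of all genes (74.2% of them positive, against 65.1% in the main fit). The 5 negative calls ended there, with -1.16 ± 0.45 (SE, adjusted p = 0.0957) for Pik3r1, -0.79 ± 0.34 (SE, adjusted p = 0.128) for Akt1, -1.23 ± 0.62 (SE) for Phlpp1, -0.82 ± 0.43 (SE, adjusted p = 0.214) for Pik3ca and -0.99 ± 0.65 (SE, adjusted p = 0.344) for Phlpp2. For Rebound against Vehicle, 0 differences were called by edgeR, beside 0.517% of all genes, and 7 had an unadjusted p under 0.05; DESeq2 was not run on the differences.

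Genes around the pathway were read from 9 named lists. Among the 12 PIP3 effectors of leukocytes, signalling proteins that act downstream of PIP3, all 12 were called higher in TAM than in TC at Vehicle (25.6% of all genes), 10 at Endpoint (18.7%) and 11 at Rebound (20.4%). In TAM Endpoint against Vehicle 6 of these 12 were called lower, against 19.3% of all genes (median -0.40, beside -0.03 over all genes), with the GTPase Rac2 at -1.30 ± 0.17. Of the 12, 4 were called higher and 4 lower without the Vehicle mice low in Rn45s, with Rac2 at -1.35 ± 0.18 (SE, adjusted p = 5.61e-05). Of all genes 4827 were called there, 43.6% of them higher. In TC Endpoint against Vehicle 5 of 12 were called higher, against 14.0% of all genes (median 2.10, beside 0.03 over all genes), with Rac2 at 4.58 ± 1.65. Without the TC Endpoint libraries rich in T and NK markers 2 of the 12 were called higher, beside 1124 of all genes called (61.1% of them higher), and Rac2 had 1.37 ± 0.85 (SE, adjusted p = 0.327). Only 1 of the 12 was called higher without the Vehicle mice low in Rn45s, beside 2683 of all genes called (39.8% of them higher), and Rac2 had 4.03 ± 2.11 (SE, adjusted p = 0.190). The counts below are for TAM Endpoint against Vehicle, where 13.7% of all genes were called higher and 19.3% lower. Of 9 tested mTOR assembly factors and inhibitors, 4 were called lower in TAM Endpoint (median -0.71), with the complex 2 subunit Prr5l at -1.26 ± 0.31. Of 9 AGC kinases and AKT substrates, 3 were called lower, with Tbc1d4, an AKT substrate in glucose uptake, at -2.17 ± 0.45. Of 9 other PI3K enzymes and regulators, 3 were called higher, with Pik3ip1, an inhibitor of the catalytic subunits, at 2.71 ± 0.49; in TC Endpoint it had 1.51 ± 0.37, and 1.54 ± 0.54 (SE, adjusted p = 0.0941) without the libraries rich in T and NK markers.

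The other lists were mixed in TAM Endpoint against Vehicle, and several had shares called near or below the 13.7% higher and 19.3% lower of all genes. Of 10 upstream adaptors 2 were called higher and 2 lower, with the docking proteins Gab1 at 1.20 ± 0.24 and Irs1 at -2.40 ± 0.89. Of 21 genes of the amino acid branch 4 were higher and 6 lower, with Rragd at 1.66 ± 0.57 and Sesn2 at -1.38 ± 0.42. Of 11 AMPK and LKB1 genes 4 were higher and 3 lower, with the AMPK subunits Prkab2 at 1.50 ± 0.29 and Prkag1 at -1.09 ± 0.18. Of 14 translation targets 1 was higher and 2 lower, with Pdcd4, an inhibitor of translation initiation, at 1.93 ± 0.30 and Larp1 at -0.79 ± 0.20. Of 14 other phosphoinositide enzymes 2 were higher and 2 lower, with Inpp5f at 0.70 ± 0.25 and Inpp5b at -1.22 ± 0.22. The calls of Rragd at 1.18 ± 0.61 (SE, adjusted p = 0.147) and Larp1 at -0.38 ± 0.16 (SE, adjusted p = 0.0810) ended without the Vehicle mice low in Rn45s, where 2 AMPK and LKB1 genes were higher and 3 lower, and 1 translation target was higher and 3 lower. Of all genes 4827 were called there, 43.6% of them higher.

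In TAM Rebound against Endpoint, Irs1 had 5.37 ± 0.93, Tbc1d4 3.18 ± 0.46, Fnip2 0.98 ± 0.20, Inpp5b 1.01 ± 0.22, Prr5l 1.02 ± 0.31 and Dock2 0.71 ± 0.18, and called lower were Gab1 at -1.30 ± 0.24, Pik3c2b at -1.11 ± 0.31, Sesn1 at -1.06 ± 0.25, Prkab2 at -1.01 ± 0.29 and Pdcd4 at -0.89 ± 0.29. Of these 11 genes, 3 were called without the TAM Rebound libraries rich in T and NK markers, namely Irs1 at 5.83 ± 1.10 (SE, adjusted p = 0.00721), Tbc1d4 at 2.21 ± 0.46 (SE, adjusted p = 0.0130) and Fnip2 at 1.15 ± 0.23 (SE, adjusted p = 0.0109). Of all genes 592 were called there, 81.6% of them higher. In TC Endpoint against Vehicle the leading genes were Hcst at 7.16 ± 2.01, Pip5k1b at 4.05 ± 1.02, Grb10 at 3.25 ± 0.58, Cab39l at 3.24 ± 0.57 and Sgk1 at 2.12 ± 0.43, and lower Inpp5f at -2.74 ± 0.38 and Gab1 at -1.57 ± 0.36. T and NK markers summed to 3798 to 5439 CPM in 4 of the 6 TC Endpoint libraries. Without those 4, the calls of Hcst at 2.96 ± 1.44 (SE, adjusted p = 0.216) and Gab1 at -0.95 ± 0.42 (SE, adjusted p = 0.179) ended, while Pip5k1b had 4.79 ± 1.11 (SE, adjusted p = 0.0254), Grb10 2.97 ± 0.75 (SE, adjusted p = 0.0361), Cab39l 3.96 ± 0.59 (SE, adjusted p = 0.00817), Sgk1 2.79 ± 0.48 (SE, adjusted p = 0.0106) and Inpp5f -2.22 ± 0.49 (SE, adjusted p = 0.0223). The calls of Hcst at 6.60 ± 2.63 (SE, adjusted p = 0.0944) and Pip5k1b at 3.50 ± 1.26 (SE, adjusted p = 0.0684) ended without the Vehicle mice low in Rn45s.

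Levels not yet given complete the picture by role; each is a mean CPM ± SD over 6 Endpoint or 5 Rebound or Vehicle libraries. For the catalytic subunits, Pik3ca averaged 44.3 ± 12.4 in TC Endpoint and 59.5 ± 6.02 in TC Rebound. Pik3cb averaged 29.6 ± 2.11 in TAM Endpoint and 30.1 ± 7.27 in TAM Rebound, and 7.35 ± 1.78 in TC Endpoint and 10.9 ± 3.93 in TC Rebound. Neither gene was called by stage in TC. Pik3cd averaged 222 ± 53.3 and Pik3cg 303 ± 58.5 in TAM Rebound, and Pik3cg 14.3 ± 29.6 in TC Rebound. Pik3r5 averaged 68.5 ± 20.4 in TAM Rebound and 6.58 ± 14.4 in TC Rebound. The spread of the TC Rebound values exceeded their means, through mouse 49827. Pik3ap1 averaged 18.5 ± 12.6 in TC Endpoint and 2.11 ± 4.21 in TC Rebound, and Inpp5d 116 ± 56.00 and 20.9 ± 44.2. Among the regulatory subunits, Pik3r1 averaged 172 ± 47.3 in TC Rebound. Pik3r3 averaged 4.51 ± 3.48 in TAM Endpoint and 10.2 ± 3.63 in TAM Rebound, and 34.9 ± 12.8 in TC Endpoint and 62.7 ± 31.5 in TC Rebound; it was not called by stage in either sort. Pik3r2 averaged 27.8 ± 4.12 in TAM Endpoint, 36.1 ± 10.6 in TAM Rebound and 40.6 ± 25.3 in TAM Vehicle, and 44.1 ± 24.7 in TC Vehicle. Its Vehicle spread in both sorts came from low values in mice 57098 and 57682.

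Of the phosphatases, Inppl1 averaged 27.3 ± 4.80 in TAM Endpoint, 24.6 ± 4.82 in TAM Rebound and 25.9 ± 13.3 in TAM Vehicle, and 19.1 ± 10.6, 26.9 ± 9.81 and 12.96 ± 8.22 in TC Endpoint, Rebound and Vehicle. Inpp4b averaged 27.3 ± 11.7 in TAM Endpoint, 51.5 ± 17.5 in TAM Rebound and 41.3 ± 12.2 in TAM Vehicle, and 38.7 ± 46.4 in TC Rebound. Phlpp1 averaged 8.02 ± 3.77 in TAM Rebound, and Phlpp2 stayed between 9.77 ± 3.29 in TC Vehicle and 11.7 ± 1.29 in TC Rebound, with 11.7 ± 1.66 in TC Endpoint. No TC comparison called Phlpp2. Among the kinases, Pdpk1 averaged 54.5 ± 3.90 in TAM Endpoint, and 63.3 ± 13.3, 55.5 ± 6.50 and 56.6 ± 12.97 in TC Endpoint, Rebound and Vehicle. Akt1 averaged 59.4 ± 10.2 in TC Rebound and 60.1 ± 7.71 in TC Vehicle. Akt2 averaged 34.5 ± 4.05 in TAM Rebound, and 68.9 ± 22.9, 70.1 ± 9.55 and 84.6 ± 15.8 in TC Endpoint, Rebound and Vehicle. Pdpk1, Akt1 and Akt2 were not called by stage in TC. Gsk3a averaged 6.96 ± 0.920, 5.49 ± 1.90 and 6.56 ± 2.36 in TAM Endpoint, Rebound and Vehicle, and 8.39 ± 1.65, 9.03 ± 2.65 and 12.1 ± 3.35 in the same stages of TC. Its exons share 820 bases with the opposite-strand gene 9130221H12Rik. Gsk3b averaged 143 ± 20.2, 204 ± 26.9 and 157 ± 61.5 in TAM Endpoint, Rebound and Vehicle, and 302 ± 108 in TC Vehicle.

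For the mTOR complexes, Mtor averaged 46.8 ± 6.07 in TAM Rebound, and 31.2 ± 10.02 and 46.5 ± 14.7 in TC Endpoint and Rebound. Rptor averaged 75.2 ± 20.5 in TAM Rebound, and 22.8 ± 11.1 and 33.4 ± 9.40 in TC Endpoint and Rebound. Rictor averaged 28.7 ± 5.51 in TAM Rebound, and 35.6 ± 15.1, 36.7 ± 11.8 and 22.9 ± 9.49 in TC Endpoint, Rebound and Vehicle. The kinase and the scaffolds of both complexes were thus not called by stage in TC. Mlst8 averaged 15.5 ± 3.77 in TAM Rebound and 22.5 ± 2.36 in TC Rebound. Mapkap1 averaged 22.9 ± 3.71, 21.5 ± 2.09 and 18.7 ± 3.63 in TAM Endpoint, Rebound and Vehicle, and 35.6 ± 11.2, 36.4 ± 4.89 and 28.4 ± 2.73 in TC. Deptor averaged 7.18 ± 2.51 in TAM Endpoint and 6.66 ± 3.64 in TAM Rebound, where its changes were not called. Akt1s1 (PRAS40), an mTOR complex 1 inhibitor that AKT phosphorylates, averaged 11.2 ± 2.81, 8.06 ± 0.692 and 11.6 ± 8.17 in TAM Endpoint, Rebound and Vehicle, and 14.98 ± 5.07, 14.5 ± 2.53 and 11.6 ± 7.61 in TC. Tsc1 averaged 16.8 ± 6.66 in TAM Rebound, and 21.00 ± 10.7, 16.4 ± 5.31 and 17.3 ± 3.96 in TC Endpoint, Rebound and Vehicle. In TC, unlike TAM, no stage comparison called Tsc1, and the difference between the sorts in these changes was not called either. Tsc2 averaged 54.8 ± 4.49 in TAM Rebound, and 37.7 ± 10.2, 63.4 ± 15.98 and 61.1 ± 12.6 in TC. Rheb averaged 96.7 ± 21.8, 106 ± 7.90 and 90.6 ± 10.8 in TAM Endpoint, Rebound and Vehicle, and 144 ± 63.8, 116 ± 12.96 and 146 ± 53.4 in TC.

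The translation branch ends the pathway. Eif4ebp1 averaged 57.1 ± 19.96 in TAM Rebound and 79.6 ± 46.5 in TAM Vehicle, and 29.8 ± 12.1 and 32.1 ± 21.00 in TC Rebound and Vehicle. Eif4e averaged 115 ± 34.4 in TAM Rebound and 161 ± 59.2 in TC Rebound. Eif4b averaged 263 ± 17.2 in TAM Rebound, and 226 ± 29.97, 239 ± 46.1 and 311 ± 29.8 in TC Endpoint, Rebound and Vehicle. In TC the Endpoint libraries all lay below the Vehicle libraries for Eif4b, without a call (adjusted p = 0.0532).

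Called in no stage comparison of either sort were Pik3cb, Pik3r3, Inppl1, Akt1s1, Gsk3a, Rictor, Mapkap1, Rheb, Rps6kb1, Rps6kb2 and Eif4ebp1. The share of all genes without such a call was not computed. Without the Vehicle mice low in Rn45s, Rictor and Rps6kb1 were called higher in TAM Endpoint and in TAM Rebound than in TAM Vehicle. In the same setting Eif4ebp1 was called lower in TAM Endpoint and TC Endpoint, and Akt1s1 lower in TAM Rebound, each against Vehicle. For the S6 kinase Rps6kb1, TAM averaged 62.2 ± 10.98 CPM at Endpoint, 65.7 ± 10.4 at Rebound and 63.2 ± 39.8 at Vehicle, and TC 55.3 ± 18.3, 98.9 ± 26.3 and 73.7 ± 40.4. Rps6kb2 shares 1224 exon bases with the opposite-strand leukocyte gene Ptprcap, whose median was 173 CPM in TC Endpoint and 0.402 CPM in TC Vehicle. Rps6kb2, the other S6 kinase, averaged 21.3 ± 4.83, 21.2 ± 6.59 and 23.6 ± 7.57 CPM in TAM Endpoint, Rebound and Vehicle. In TC it averaged 18.7 ± 4.81 CPM at Rebound, and 13.1 ± 6.74 CPM in TC Endpoint and 15.99 ± 7.03 CPM in TC Vehicle (SD, n = 6 and 5).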

How the data were processed

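Gene counts for the 32 libraries came from the table the authors deposited, which holds raw counts by gene symbol without normalization. Per the labels' protocols, cells were sorted into TriZOL and libraries were prepared by SMART-Seq (no strand information) and read on a HiSeq 2000. Per the submitters' processing notes, STAR 2.3.0e, SAMtools and the build mm10 were used. The counting program is not given in the sources used here. Samples were grouped by the labels' stage and cell type, and replicates are different mice by the labels' mouse id, so p-values measure the spread between these mice. No 2 libraries of a group agreed within sampling noise (chi-square per degree of freedom at least 19.7).

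In R 4.3.3, edgeR 4.0.16 filtered genes (filterByExpr), scaled by TMM and fitted a robust quasi-likelihood model. Stage comparisons used the 16 libraries of a sort, and TAM against TC and differences between sorts used all 32 libraries in 6 groups. Benjamini-Hochberg adjustment ran over all genes tested, at 0.05. Fold changes come from these fits, and printed CPM from the joint scaling of 32 libraries. The scripts were tested on simulated counts. Alternatives were DESeq2 1.42.0, RLE size factors, no filter, halved BLZ945 counts, Rn45s left out, fits of 6 or 2 groups, the mouse as a block, each library left out in turn, and, chosen after the data were seen, the 2 sets of libraries named in the report. Members of a mouse pair deviated together weakly (r 0.011 to 0.337 over 15 mice, median 0.066, 5 over 0.1), and the mouse id pairs the sorts by the labels. Genes were named with full statistics where called, and from each pathway list the called gene of largest change in each direction and stage comparison, of which those with the larger changes are printed. The 34 genes and all lists were chosen with earlier results of these data known. Exon lengths and overlaps come from GENCODE M21 and promoters from RefSeq (GRCm38.p6), where 31 of the 34 genes matched.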

Additional observations from a re-analysis of the deposited data

Results flagged for a closer look

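Among 204 sets of CPM values (34 genes in 6 groups), 19 held a library far from the others of its group by Dixon's test at 95%, which chance does in about 1 in 20 groups. Of these, 8 came from TC Rebound 49827, the library of that group with T and NK markers. It was high for Pik3cd (148 CPM), Pik3cg (67.3), Pik3r5 (32.3), Pik3ap1 (9.63), Inpp5d (99.9), Inpp4b (122) and Gsk3a (13.6), and low for Pik3r2 (31.0). TC Endpoint 49845 was high for Pik3r3 (59.4 CPM), Pdpk1 (88.5) and Rheb (272), and TC Endpoint 49843 for Inppl1 (40.4), Akt1 (71.0) and Eif4ebp1 (27.5); these are the TC Endpoint libraries without high T and NK markers. The others were Akt2 in TAM Endpoint 49845 (39.4 CPM) and TC Rebound 49059 (86.9), Pik3cg in TAM Rebound 49041 (201, the lowest of its group), Pik3cd in TC Vehicle 54363 (20.1) and Inppl1 in TC Vehicle 64247 (27.6).

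Differences between the sorts in a stage change passed the test for 18 values, all on the log2 scale as the TAM change minus the TC change. For Endpoint against Vehicle they were 1.16 for Pik3ca, 1.21 for Pik3cb, -5.63 for Pik3cd, -5.43 for Pik3cg, 1.48 for Pik3r1, -5.95 for Pik3r5, -4.20 for Pik3ap1, -3.02 for Inpp4b, 1.02 for Akt1, 2.08 for Phlpp1 and -2.93 for Deptor. For Rebound against Endpoint they were -0.84 for Pik3ca, -1.05 for Pik3r1, 4.19 for Pik3ap1, -0.99 for Akt1, -1.41 for Phlpp1, -1.12 for Phlpp2 and 3.32 for Deptor.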

How the results depend on the processing

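For the 119 called values of single genes, 2328 alternative values were computed. Of these 2013 kept direction and call, 312 kept direction but missed the threshold, and 3 reversed, all for Inpp4b without the libraries rich in T and NK markers (-1.77 for TC Endpoint against Vehicle, 2.48 for TAM against TC at Endpoint, 1.16 for the difference between sorts). Of 910 alternative counts and shares 794 stayed within 1.5 times or 1 SD. Called under every alternative were 7 of the 17 genes of TAM Endpoint against Vehicle and 13 of 22, 10 of 14 and 12 of 17 of TAM against TC at Vehicle, Endpoint and Rebound. The causes of the moves below were not tested. RLE and DESeq2 scaling moved the median of all genes by -0.11 in TAM against TC at Vehicle, no filter by 0.15 at Endpoint, and the 6-group fit by -0.12 in TAM Endpoint against Vehicle. Depth, down to 4180176 counts in a TC Endpoint library, limits the low genes, such as Deptor.

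Under the 6-group fit, TAM Endpoint against Vehicle had 6 genes lower (3227 of all genes, 32.1% of them higher against 41.5%). TAM Rebound against Vehicle had 0 higher and 1 lower (1094 of all genes), and TAM Rebound against Endpoint 0 higher (1416 of all genes, 76.8% of them higher against 66.4%). TC Endpoint against Vehicle had 10 lower (5482 of all genes, 52.9% of them higher against 48.6%, where the main fit called 4305). TC Rebound against Vehicle had 670 of all genes (40.9% higher against 54.5%), and TC Rebound against Endpoint 5 lower (5147 of all genes, 46.3% of them higher against 54.3%). Without the filter TAM Rebound against Vehicle had 1 higher (1581 of all genes), and in a fit of its 2 groups 0 higher, 2 lower and 999 of all genes, where TC Rebound against Vehicle had 0. RLE scaling gave 3 lower in TC Endpoint against Vehicle (4288 of all genes, 52.6% of them higher). DESeq2 gave 671 of all genes in TC Rebound against Vehicle and 4 lower in TC Rebound against Endpoint (5152 of all genes, 46.4% of them higher). Halved counts gave 25 of all genes (72% higher) in TC Rebound against Vehicle and no called single gene lost its call.

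Without the libraries rich in T and NK markers, the counts higher and lower were 1 and 2 (525 of all genes) for TAM Rebound against Vehicle, 1 and 0 (592) for TAM Rebound against Endpoint, 2 and 1 (1124) for TC Endpoint against Vehicle, 0 and 1 (320) for TC Rebound against Vehicle and 1 and 6 (2526) for TC Rebound against Endpoint, with 11 higher in TAM at Endpoint (6946 of all genes called, 36.3% of them higher). Differences between sorts were 3 positive (2407 of all genes) for Endpoint against Vehicle, 1 positive (293) for Rebound against Vehicle, and 6 positive and 0 negative (2084) for Rebound against Endpoint. TC Endpoint shares were 32.8% for Pik3ca, 8.97% for Pik3cb and 30.1% for Pik3cd. Without the Vehicle mice low in Rn45s, TAM Rebound against Vehicle had 6 higher and 8 lower (3406 of all genes), TC Endpoint against Vehicle 1 higher (2683), TC Rebound against Vehicle 1 higher (567), and the Rebound against Vehicle difference 249 of all genes. Not divided by length, the Pik3ca share was 11.5%, 6.81% and 3.19% in TAM Endpoint, Rebound and Vehicle, and the Pik3cd share 29.6% in TAM Endpoint.

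With the mouse as a replicate block, the Rebound against Vehicle difference had 4 of all genes, and the Rebound against Endpoint difference 6 positive and 2 negative (2314 of all genes, 62.8% of them positive). Of the called genes the block ended none other than those named in the report. Leaving out each library in turn gave 0 to 3 higher and 2 to 7 lower for TAM Rebound against Vehicle, 1 to 4 higher for TAM Rebound against Endpoint, 3 to 5 higher and 3 to 8 lower for TC Endpoint against Vehicle, 0 to 2 lower and 0 to 586 of all genes for TC Rebound against Vehicle and 1 to 7 lower for TC Rebound against Endpoint. For the differences between sorts it gave 0 to 2 positive and 36 to 605 of all genes for Rebound against Vehicle, and 2 to 7 positive and 3 to 6 negative for Rebound against Endpoint. Where no count over all genes stands beside a range, that count is not given here, so the range cannot be set against all genes.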

Other observations

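The Vehicle mice 57098 and 57682, whose libraries held the least Rn45s, shared a further pattern in both sorts. Rps6kb1 had 111 and 102 CPM in their TAM libraries and 31.3 to 38.7 CPM in the other 3 TAM Vehicle libraries, and 122 and 109.8 CPM in their TC libraries and 28.1 to 55.2 CPM in the other 3. Akt1s1 ran the other way, with 2.48 and 3.08 CPM in TAM against 16.2 to 19.7 CPM, and 4.68 and 3.46 CPM in TC against 12.9 to 21.8 CPM. Pik3r2 had 11.5 and 16.6 CPM in TAM against 48.4 to 68.5 CPM, and 19.9 and 20.6 CPM in TC against 41.1 to 70.7 CPM. These mice were picked for their Rn45s share after the data were seen, and the difference was not tested.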
